A study of Mus musculus with 36 samples.

Results

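The account covers 10 mouse genes of hepatic glucose production: the enzymes and transporters Pck1, Pck2, Fbp1, G6pc, Slc37a4, Got1, Mdh1, Ldha and Aqp9, and the coactivator gene Ppargc1a. They were followed through every probe that carries their name in the array design, 19 probes in all. The whole array gave 23054 named genes that could be tested. RNA came from whole liver of male mice aged 11 weeks, in 36 samples with 1 array each; the labels number the samples as replicates without saying that each is a separate mouse, so p-values measure the spread between these samples. Knockout mice (IRLKO) carried LoxP sites around the fourth exon of Insr, the insulin receptor gene, and a tamoxifen-inducible Cre recombinase driven by the transthyretin promoter, which is active in hepatocytes. Controls are labelled IRLWT. The labels do not say when tamoxifen was given or whether controls carried the Cre. The floxed mice had been crossed with Cre mice of the C57BL/6J strain. All mice ate chow without restriction, received no further treatment and lived under 12 h of light and 12 h of darkness. Livers of both genotypes were sampled at Zeitgeber time (ZT) 8, 12 and 16, counted in hours from lights-on, with lights off at ZT12. Each of the 6 groups held 6 samples, called livers below. The design asks how loss of the receptor in hepatocytes changed liver transcripts at each time of day.

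Gluconeogenesis makes glucose from lactate, amino acids and glycerol. Pck1 (cytosolic) and Pck2 (mitochondrial) encode the phosphoenolpyruvate carboxykinases that convert oxaloacetate to phosphoenolpyruvate, Fbp1 encodes fructose-bisphosphatase, and G6pc encodes the catalytic subunit of glucose-6-phosphatase, which releases free glucose after Slc37a4 has carried glucose-6-phosphate into the endoplasmic reticulum. Got1 and Mdh1, the cytosolic aspartate aminotransferase and malate dehydrogenase, move carbon and reducing equivalents between mitochondria and cytosol. Ldha encodes a lactate dehydrogenase subunit and Aqp9 the glycerol channel of hepatocytes. In liver, insulin represses Pck1, G6pc and Ppargc1a, in part by keeping FoxO factors out of the nucleus, whereas glucagon acts through cAMP and CREB to raise them. PGC-1alpha, the product of Ppargc1a, coactivates HNF4alpha, FoxO1 and the glucocorticoid receptor at gluconeogenic genes.

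The promoters of the genes with the widest differences between genotypes are shown for reference, since the insulin and cAMP responses of these genes are known to act partly through such regions. The RefSeq promoter table (build GRCm38.p6) held all 10 genes, with 14 start sites. The 250 bases before a start were searched on both strands for 7 short motifs. These were the cAMP response element TGACGTCA (found in 1.55% of all 32851 promoters of this length), its core CGTCA, which the full element contains (17.8%), the FoxO element GTAAACA (3.17%), the insulin response sequence CAAAACAA (2.21%), the E-box CACGTG (6.02%), the D-box TTATGTAA (0.819%) and the nuclear receptor element AGGTCA (14%). Matches are in capitals, read 5′ to 3′ on the strand of the gene.
Pck1 promoter, chr2:173152823-173153072, plus strand: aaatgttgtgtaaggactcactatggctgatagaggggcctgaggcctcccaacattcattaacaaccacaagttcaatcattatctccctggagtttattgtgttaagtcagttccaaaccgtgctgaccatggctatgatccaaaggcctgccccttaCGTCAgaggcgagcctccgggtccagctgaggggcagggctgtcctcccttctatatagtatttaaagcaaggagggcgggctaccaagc
G6pc promoter, chr11:101367466-101367715, plus strand: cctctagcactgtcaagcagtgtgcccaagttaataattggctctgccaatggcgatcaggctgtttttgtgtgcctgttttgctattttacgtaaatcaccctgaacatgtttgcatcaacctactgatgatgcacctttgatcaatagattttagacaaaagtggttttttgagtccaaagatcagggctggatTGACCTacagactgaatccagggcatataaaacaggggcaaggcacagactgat
Ppargc1a promoter, chr5:51567726-51567975, minus strand: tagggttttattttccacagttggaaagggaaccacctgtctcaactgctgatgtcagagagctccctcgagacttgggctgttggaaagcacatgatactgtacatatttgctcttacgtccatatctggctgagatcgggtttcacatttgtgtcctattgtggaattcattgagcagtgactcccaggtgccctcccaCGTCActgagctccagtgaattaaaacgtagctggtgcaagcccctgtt
Got1 promoter, chr19:43524606-43524855, minus strand: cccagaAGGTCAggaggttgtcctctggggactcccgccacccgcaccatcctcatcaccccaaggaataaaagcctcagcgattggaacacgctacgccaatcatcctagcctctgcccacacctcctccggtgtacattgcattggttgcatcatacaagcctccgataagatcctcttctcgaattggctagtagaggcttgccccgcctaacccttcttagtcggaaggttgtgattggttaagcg
The Pck1 and Ppargc1a windows each held 1 core of the cAMP element, at 90 to 86 and 49 to 45 bases before the start. The G6pc and Got1 windows each held 1 nuclear receptor element, at 54 to 49 bases (read on the other strand) and 244 to 239 bases before the start. Pck2 had 1 insulin response sequence on the other strand, at 160 to 153 bases. The first Ldha start had the full cAMP element and the E-box at 2 positions, and its second start had 1 core. Slc37a4 had 1 core of the cAMP element and 1 nuclear receptor element at its first start and the core at 2 positions at its second. No listed motif lay in the windows of Fbp1, Mdh1 and Aqp9. These matches are letters in a window of fixed length and do not show binding. The search took exact strings only, so sites that vary from them were missed. A window without a match may therefore still hold such sites.

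On each array 53.7% to 63.1% of spots were well above background, and 18 of the 19 probes were so on all 36 arrays with none saturated. The remaining probe, a second one for Pck2 (A_55_P2822590), was well above background on 4 knockout arrays and on no control array, and was not tested. Values are log2 signals relative to the array's 75th percentile, so that 0 is that percentile. They compare groups within a probe but give no ranking between genes. The Insr probe A_55_P2173927 was lower in knockouts by 1.77, 1.88 and 1.65 log2 units at ZT8, ZT12 and ZT16, with no overlap between groups. The second Insr probe, A_52_P6490, well above background on 27 arrays, was lower by 0.95, 1.46 and 0.59, and at ZT16 its groups overlapped. The probes lie at positions 4745 and 4038 of the transcript, downstream of the deleted exon, and so do not measure the deletion itself. Knockout ZT8 replicate 3 stood apart from its group, with a score of 7.43 on the second principal component against 36.6 to 57.1 for the other 5, and ZT8 results are given without it where it matters. The 7 hepatocyte markers tested were well above background on all arrays, and 2, 3 and 2 of them were lower and 0, 1 and 0 higher in knockouts at the 3 times. Their mean level was 8.03 to 8.40 in controls and 7.67 to 8.21 in knockouts. Ttr, whose promoter drives the Cre, was lower by 1.12, 1.02 and 0.97, and Alb by 0.41, 0.35 and 0.39. Of the 7 Kupffer cell and macrophage markers tested, 2, 5 and 2 were higher in knockouts at the 3 times. Their mean level was 1.59 to 3.44 in controls and 2.32 to 4.23 in knockouts. Of the 7 endothelial markers tested, 0, 6 and 5 were higher in knockouts, with a mean level of 0.17 to 0.96 in controls and 0.29 to 1.34 in knockouts. Of the 4 lymphocyte markers tested, 2, 3 and 3 were higher and 0, 1 and 0 lower, with a mean level of -2.23 to -1.05 in controls and -1.44 to 0.04 in knockouts. For comparison, 34.9%, 41.5% and 39.3% of all genes were higher or lower at the 3 times by the test described below. The part of these cell types in the results below was not tested. In RNA of whole liver, fewer cells of a type and less RNA per cell cannot be told apart.

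By the brightest probe of each gene, Pck1, Pck2, Fbp1, G6pc, Ppargc1a and Got1 were all higher in knockouts at ZT8, ZT12 and ZT16, and no gene of the 10 was lower at ZT8 or ZT12. At ZT16 Aqp9 joined the higher genes, and Slc37a4 and Mdh1 were lower. Called genes were those with a limma p-value below 0.05 after Benjamini-Hochberg adjustment over all 34678 probes. That made 6, 6 and 9 of 10 genes called at the 3 times. Over all 23054 genes, each by its brightest probe in the same fit, 34.9%, 41.5% and 39.3% were called. Over all probes the shares were 33.7%, 39.3% and 37.9%, against 10, 9 and 15 of the 18 tested probes of these genes. The median log2 difference of the 10 genes was 0.66, 0.55 and 0.66, where the median of all genes was 0.01, -0.02 and 0.00. Knockout values lay wholly outside the control range in 5, 5 and 6 of the 10 genes, compared with 14.2%, 19.7% and 17.6% of all probes. The 10 genes were chosen with earlier results of these data known, so these comparisons with all genes are not a test of the set.

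**Figure D1:**
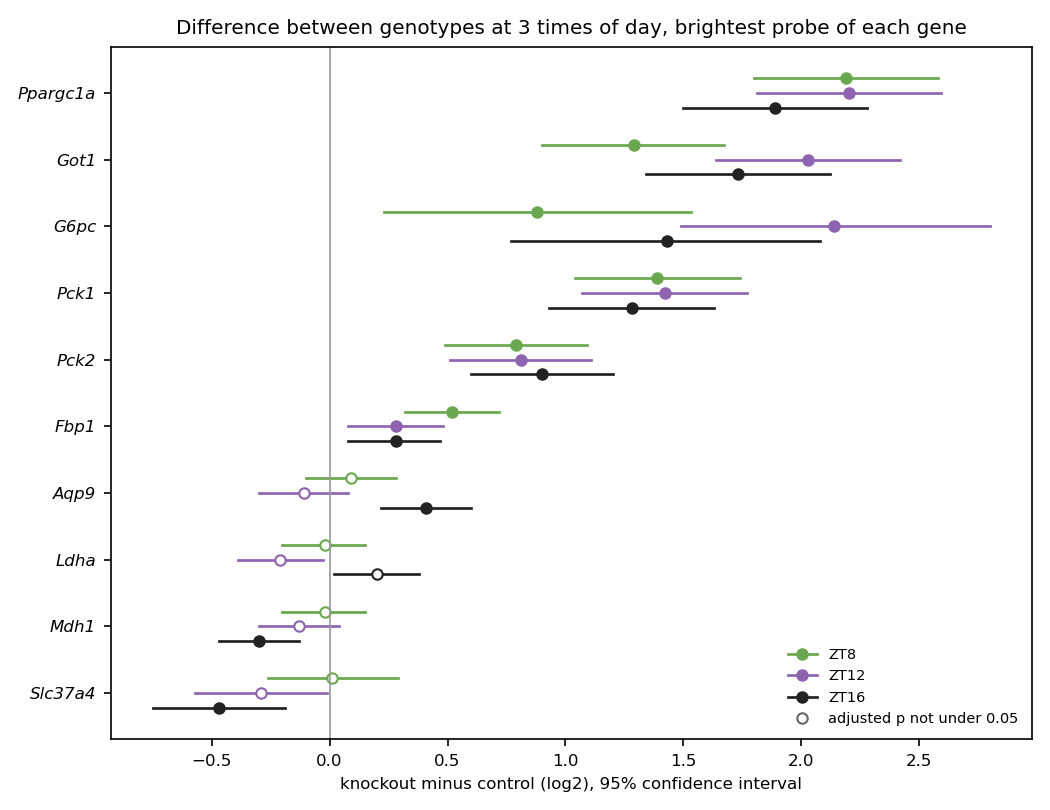
Knockout minus control difference (log2) of each gene's brightest probe at ZT8, ZT12 and ZT16, with 95% confidence intervals from limma (6 livers per group, 36 arrays). Filled points had an adjusted p under 0.05. Ppargc1a, Got1, G6pc, Pck1, Pck2 and Fbp1 lie above 0 at every time, between 0.28 and 2.20 log2 units, and Slc37a4 and Mdh1 lie below 0 at ZT16.

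Among the enzymes that make phosphoenolpyruvate, Pck1 was the one with the wider difference. In controls its log2 signal had a lowest, median and highest value of 6.93, 7.14 and 7.45 at ZT8, 6.93, 7.27 and 7.90 at ZT12, and 6.09, 7.12 and 7.61 at ZT16. In knockouts these were 8.39, 8.52 and 8.86, then 8.62, 8.78 and 8.93, then 8.06, 8.30 and 8.41. Every knockout liver lay above every control liver of its time. The difference was 1.39 ± 0.17 (SE) log2 units at ZT8, 1.42 ± 0.17 at ZT12 and 1.28 ± 0.17 at ZT16, or 2.62-, 2.68- and 2.43-fold (limma adjusted p 2.35e-07, 1.16e-07 and 6.92e-07). Controls at ZT16 were spread more widely than the other groups, with 2 of 6 livers below the lowest ZT8 control. Within the 3 wash batches the ZT16 difference was 0.58, 1.00 and 1.78. A batch holds only 1 to 3 arrays of a group, so such values, here and below, rest on few arrays.

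The mitochondrial Pck2 showed a smaller difference of steady size. Controls ran from -1.68 to -1.24 at ZT8 (median -1.56), from -1.57 to -1.13 at ZT12 (median -1.37) and from -1.59 to -0.87 at ZT16 (median -1.48). Knockouts ran from -1.06 to 0.08 (median -0.83), from -0.71 to -0.36 (median -0.63) and from -0.90 to -0.26 (median -0.44). Groups did not overlap at ZT8 and ZT12, and at ZT16 5 of 6 knockouts lay above all controls. The differences were 0.79, 0.81 and 0.90 log2 units (SE 0.15 each, 1.73- to 1.87-fold, limma adjusted p 9.05e-05, 5.55e-05 and 1.35e-05). Without knockout ZT8 replicate 3, which had the highest Pck2 value of all 36 livers, the ZT8 difference was 0.62.

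Fbp1, the enzyme that reverses the committed step of glycolysis, had the smallest differences of the 6 genes. Its control values at ZT8 had a lowest, median and highest value of 8.45, 8.56 and 8.71, and its knockout values 8.93, 9.03 and 9.32. At ZT12 controls were 8.40, 8.67 and 8.90 and knockouts 8.83, 8.99 and 9.04. At ZT16 controls were 8.30, 8.58 and 8.72 and knockouts 8.64, 8.80 and 9.16. The groups were apart only at ZT8, and at ZT12 and ZT16 5 and 4 of 6 knockouts exceeded all controls. Differences were 0.52, 0.28 and 0.28 log2 units (SE 0.10 each), that is 1.43-, 1.22- and 1.21-fold (limma adjusted p 1.08e-04, 0.0217 and 0.0255). Leaving out control ZT12 replicate 3 took the ZT12 difference to an adjusted p of 0.0857. The ZT16 call was lost (adjusted p up to 0.0938) when knockout replicate 6, control replicate 2 or control replicate 6 of that time was left out, and with only the groups compared in the fit (0.0964).

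G6pc, the last step before glucose leaves the cell, had its highest difference at ZT12. Control values were 5.32 to 6.96 at ZT8 (median 6.31), 3.99 to 5.66 at ZT12 (median 5.0) and 4.42 to 5.57 at ZT16 (median 5.35). Knockout values were 5.93 to 7.52 (median 7.29), 6.46 to 8.00 (median 6.99) and 6.20 to 7.30 (median 6.61). All knockouts exceeded all controls at ZT12 and ZT16, while at ZT8 the groups overlapped through 1 knockout. The differences were 0.88, 2.14 and 1.43 log2 units (SE 0.32 each), or 1.84-, 4.42- and 2.69-fold (limma adjusted p 0.033, 3.48e-06 and 7.29e-04). The ZT8 call was fragile. Its adjusted p was 0.0549 without the filter on dim probes, 0.0692 with slide as a block and 0.115 with only the groups compared in the fit. It also rose, to at most 0.103, without any 1 of 7 arrays: knockout replicates 1, 2, 4 and 5 and control replicates 1, 2 and 4. Without knockout ZT8 replicate 3 the difference was 1.13 (adjusted p 0.00522), and within the 3 wash batches it was 0.14, 1.43 and 1.09.

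Slc37a4, the transporter that feeds glucose-6-phosphate to that enzyme, was higher in knockouts at no time. By its brightest probe, control values had a lowest, median and highest value of 6.14, 6.35 and 6.67 at ZT8, 6.55, 6.87 and 6.92 at ZT12, and 6.61, 6.98 and 7.04 at ZT16. Knockout values were 6.12, 6.39 and 6.75, then 6.23, 6.53 and 6.82, then 5.73, 6.52 and 6.87. Groups overlapped at every time, and at ZT16 4 of 6 knockouts were below all controls. The difference was 0.01 (95% confidence interval -0.26 to 0.29) at ZT8, -0.29 (-0.57 to -0.01) at ZT12 and -0.47 (-0.75 to -0.19) at ZT16, and only the last passed the test (limma adjusted p 0.00738, 1.38-fold lower). It did not pass with only the groups compared in the fit (0.0634), whereas the ZT12 difference passed without knockout ZT12 replicate 3 (0.0329). Within wash batches, with 1 to 3 arrays of a group in each, the ZT16 difference was -0.87, -0.57 and -0.12.

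**Figure D2:**
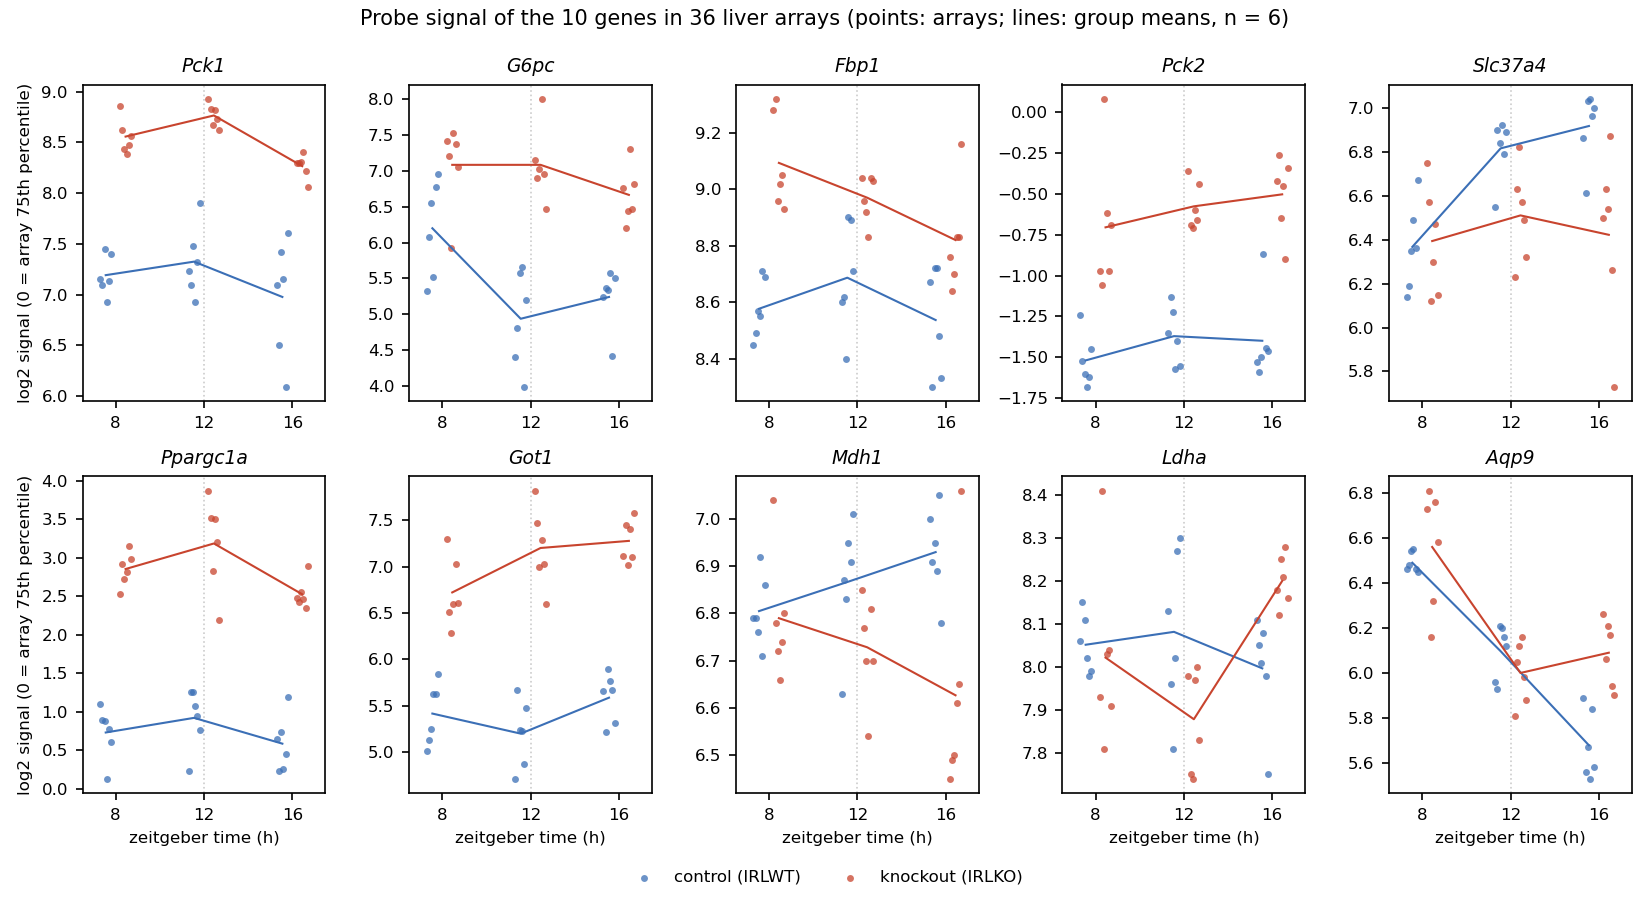
Log2 signal of the brightest probe of each gene (vertical axis, 0 is the array's 75th percentile) against Zeitgeber time in hours for 36 livers. Blue points are controls, red points knockouts, lines join the means of 6 livers, and the dotted line marks lights-off. Pck1, Ppargc1a and Got1 values separate completely by genotype at each time, while Mdh1, Ldha and Slc37a4 values overlap at most times and Aqp9 falls with time in controls.

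By the estimates, Ppargc1a had the widest difference of the 10 genes at all 3 times, though the order is not firm. At ZT12 the differences of G6pc and Got1 lay within its confidence interval of 1.81 to 2.59, and with slide as a block G6pc was at 2.32 and Ppargc1a at 2.29. At ZT16 that of Got1 lay within its interval of 1.50 to 2.28. Control values ran from 0.13 to 1.1 at ZT8 (median 0.83), from 0.23 to 1.26 at ZT12 (median 1.00) and from 0.23 to 1.19 at ZT16 (median 0.55). Knockout values ran from 2.53 to 3.15 (median 2.87), from 2.19 to 3.87 (median 3.36) and from 2.35 to 2.89 (median 2.47). No knockout came within the control range at any time. The differences were 2.19, 2.20 and 1.89 log2 units (SE 0.19 each), or 4.55-, 4.60- and 3.70-fold (limma adjusted p 3.37e-10, 2.13e-10 and 3.93e-09). Of the 23054 genes, 0.434%, 0.481% and 0.846% had a higher difference at the 3 times. The second probe, at transcript position 2473 where the first is at 2964, gave 2.15, 2.36 and 1.92, again without overlap. Within wash batches, with 1 to 3 arrays of a group in each, the ZT12 difference was 2.70, 2.31 and 1.18.

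Got1 was the only one of the cytosolic shuttle enzymes to be higher. Its control values had a lowest, median and highest value of 5.01, 5.43 and 5.84 at ZT8, 4.71, 5.23 and 5.67 at ZT12, and 5.21, 5.66 and 5.89 at ZT16. Its knockout values were 6.28, 6.60 and 7.30, then 6.60, 7.16 and 7.82, then 7.02, 7.26 and 7.58. The groups were fully separate at each time. The differences were 1.29, 2.03 and 1.73 log2 units (SE 0.19 each), or 2.44-, 4.08- and 3.31-fold (limma adjusted p 3.85e-06, 9.74e-10 and 1.91e-08). Its mitochondrial counterpart Got2 went the other way, with differences of -0.51, -0.62 and -0.67 (SE 0.07 each, limma adjusted p 3.8e-07, 7.6e-09 and 1.9e-09).

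Mdh1, which works with Got1 in the malate-aspartate shuttle, passed the test at ZT16 alone. Control values were 6.71 to 6.92 at ZT8 (median 6.79), 6.63 to 7.01 at ZT12 (median 6.89) and 6.78 to 7.05 at ZT16 (median 6.93). Knockout values were 6.66 to 7.04 (median 6.76), 6.54 to 6.85 (median 6.73) and 6.45 to 7.06 (median 6.55). At ZT16 5 of 6 knockouts lay below all controls and 1, replicate 6, lay above all of them. The differences were -0.02 (95% confidence interval -0.20 to 0.15), -0.13 (-0.30 to 0.04) and -0.30 (-0.47 to -0.13), with a limma adjusted p of 0.00609 at ZT16, and 0.0511 with only the groups compared in the fit. Without knockout ZT16 replicate 6 the ZT16 difference was -0.39 and its F test over the 3 times, described below for all 10 genes, passed at 0.0414 where it had been 0.332.

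Of the genes that bring in substrate, Ldha passed the test at no time by its brightest probe. Its second probe is given further below. Control values had medians of 8.04, 8.08 and 8.03 and a full range of 7.75 to 8.30, and knockout values had medians of 7.98, 7.90 and 8.19 and a full range of 7.74 to 8.41. At ZT16 all 6 knockouts, from 8.12 to 8.28, were above all controls, from 7.75 to 8.11. The differences were -0.02 (95% confidence interval -0.20 to 0.15), -0.21 (-0.39 to -0.03) and 0.20 (0.02 to 0.38), none past the test (limma adjusted p 0.866, 0.0543 and 0.0675). Both later values were near the threshold, and passed it under some other settings. At ZT16 the adjusted p was 0.0186 with normexp background correction, 0.0271 with quantile normalization and 0.0195 in the authors' deposited table. The ZT12 difference also passed, at as low as 0.011, without knockout replicate 1 or 5 or control replicate 2 or 3 of that time. Ldha has near-identical processed copies elsewhere in the mouse genome, and signal from these could not be told apart.

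By its brightest probe, Aqp9 passed the test at ZT16 alone. Control values ran from 6.45 to 6.55 at ZT8 (median 6.47), from 5.93 to 6.21 at ZT12 (median 6.14) and from 5.53 to 5.89 at ZT16 (median 5.62). Knockout values ran from 6.16 to 6.81 (median 6.66), from 5.81 to 6.16 (median 6.01) and from 5.90 to 6.26 (median 6.11). The groups overlapped at ZT8 and ZT12 and were separate at ZT16. The differences were 0.09, -0.11 and 0.41 log2 units (SE 0.09 each, limma adjusted p 0.507, 0.348 and 7.64e-04), the last being 1.33-fold.

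Whether the genotype difference itself changed with time was tested by a moderated F test over the 3 times, which called 7.24% of all probes. Of the 10 genes only Aqp9 passed (limma adjusted p 0.0276), and its adjusted p over the alternatives and left-out arrays reached 0.0606. Without knockout ZT16 replicate 1 or replicate 4 it missed the threshold, at up to 0.0553. For G6pc, whose differences ran from 0.88 to 2.14, the F test gave 0.19, and for Got1 0.197, or 0.0456 without knockout ZT12 replicate 6. For Ldha it gave 0.0835, and as low as 0.0271 without knockout ZT8 replicate 2 or control ZT12 replicate 3. The direct contrast of ZT16 with ZT8, which called 8.78% of all probes, called none of the 18 probes. For Pck1 that contrast was -0.11 (95% confidence interval -0.61 to 0.39) and for Ppargc1a -0.30 (-0.85 to 0.25).

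In control livers 3 of these genes changed with time of day by their brightest probes. Over the 18 tested probes of these genes, 3, 1 and 5 were called from ZT8 to ZT12, ZT12 to ZT16 and ZT8 to ZT16. From ZT8 to ZT12, 3 of 10 genes were called, against 13.6% of all probes. G6pc fell by 1.26 ± 0.32 (SE) log2 units (limma adjusted p 0.00678), Aqp9 fell by 0.39 ± 0.09 (0.00374) and Slc37a4 rose by 0.45 ± 0.14 (0.0246), each by its brightest probe. In the plot of values by array, 4 of 6 G6pc values at ZT12 were below all ZT8 values, and all 6 Aqp9 values were. From ZT12 to ZT16 only Aqp9 was called, falling by a further 0.42 ± 0.09 (limma adjusted p 0.00936), against 2.98% of probes. From ZT8 to ZT16 the same 3 genes were called, against 25.5% of probes, at -0.96 for G6pc, -0.81 for Aqp9 and 0.52 for Slc37a4. The Slc37a4 rise to ZT12 missed the threshold, at up to 0.0699, without control ZT8 replicate 1 or 2 or control ZT12 replicate 4. The G6pc change from ZT8 to ZT16 lost its call (adjusted p up to 0.0882) without control ZT8 replicate 3, 5 or 6 or control ZT16 replicate 5. With only the groups compared in the fit, the G6pc change gave an adjusted p of 0.0507 to ZT12 and 0.0631 to ZT16.

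In knockout livers the G6pc changes did not pass, at 0.00 from ZT8 to ZT12 (95% confidence interval -0.66 to 0.67) and -0.42 from ZT8 to ZT16 (-1.07 to 0.24). The genotypes were not shown to differ in this, given the F test above. Knockout ZT8 replicate 3 had a low G6pc value, at 5.93 against 7.05 to 7.52 in the rest of its group. With 1 array left out at a time, the G6pc changes ran from -0.26 to 0.18 and from -0.67 to -0.31. They still did not pass (limma adjusted p at least 0.644 and 0.102). Calls in this paragraph are those of the brightest probes. Over the 18 tested probes of these genes, 5, 6 and 7 were called from ZT8 to ZT12, ZT12 to ZT16 and ZT8 to ZT16. From ZT8 to ZT12 only Aqp9 was called, against 12.3% of probes, and it fell by 0.59 ± 0.09 (limma adjusted p 7.47e-05). Both other Got1 probes rose over that time, by 0.74 each (0.0421 and 0.0454). So did the second Slc37a4 probe, by 0.73 (0.00267), and the third Mdh1 probe, by 0.41 (0.00693). From ZT12 to ZT16, with 11.3% of probes called, Ppargc1a fell by 0.60 ± 0.19 (limma adjusted p 0.0382) and Ldha rose by 0.33 ± 0.09 (0.0112). The Ppargc1a fall missed the threshold, at up to 0.132, without each of 7 arrays, namely knockout replicates 1, 2 and 4 at ZT12 and 1, 2, 3 and 5 at ZT16. It also did so with no filter on dim probes (0.0671) and with only the groups compared in the fit (0.153). From ZT8 to ZT16, with 28.5% of probes called, Got1 rose by 0.58 ± 0.19 (limma adjusted p 0.0201), Aqp9 fell by 0.49 ± 0.09 (1.48e-04) and Fbp1 fell by 0.28 ± 0.10 (0.032). The Got1 rise missed the threshold, at up to 0.0574, without knockout ZT8 replicate 3 or knockout ZT16 replicate 6. The Fbp1 fall did so, at up to 0.0971, without knockout ZT8 replicate 1 or 2 or knockout ZT16 replicate 1, 2 or 3. It also did so with quantile normalization (0.0533), with no filter on dim probes (0.0614), with only the groups compared in the fit (0.13) and with slide as a block (0.193, at a difference of -0.19). From ZT12 to ZT16 Pck1 was at -0.48 (95% confidence interval -0.83 to -0.13) and did not pass (limma adjusted p 0.0713). All 6 of its ZT16 values were below all ZT12 values. It passed with slide as a block (-0.58, 0.0393) and with only the groups compared in the fit (-0.50, 0.0113). Some other changes that did not pass with all arrays passed with 1 array left out. From ZT8 to ZT16 these were Pck2 without knockout ZT8 replicate 3 (0.40, limma adjusted p 0.0108), Mdh1 without knockout ZT16 replicate 6 (-0.25, 0.00689) and Ldha without knockout ZT8 replicate 2 (0.26, 0.0156). With array weights Pck2, Mdh1 and Ppargc1a passed from ZT8 to ZT16, at 0.34 (0.0264), -0.21 (0.0317) and -0.48 (0.0369). From ZT8 to ZT12 the changes that passed with 1 array left out were those of Pck2 and Got1. Pck2 passed without knockout ZT8 replicate 3 (0.34, 0.0492) and Got1 without knockout ZT8 replicate 1 or ZT12 replicate 6 (as low as 0.00991).

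Several of the genes had more than 1 probe, and for some the probes gave different answers. The difference between a gene's other probe and its brightest probe was compared between genotypes by an exact two-sided permutation test of 6 against 6 livers, over 24 tests of 8 probe pairs. The smallest p such a test can give is 0.00216. The 3 probes of Got1 gave like differences, at 1.34, 2.19 and 1.66 and at 1.37, 2.20 and 1.59 log2 units beside the 1.29, 2.03 and 1.73 above, although these last 2 probes share a run of 50 bases and are not independent. For Slc37a4, Mdh1 and Aqp9, 1 probe departed from the brightest one. The departing probe gave much the dimmer signal, though well above background on all arrays. Its group means were -3.92 to -2.68 for Slc37a4, 0.89 to 1.53 for Mdh1 and -3.29 to -2.09 for Aqp9. Those of the brightest probe were 6.37 to 6.92, 6.62 to 6.93 and 5.68 to 6.56. The first 30 of 60 bases of both probes of each pair are shown, as deposited in the array files, because the choice of probe changes what is said of the gene.
Slc37a4 A_55_P2736705: ctgggacaaaagggaagaatatagagggca
Slc37a4 A_55_P2047215: ccagccttagtggaaaaaggagaatgggaa
Mdh1 A_52_P407796: agcaaaatattttaaatagtgtgtgcttta
Mdh1 A_55_P2935221: aatcccagctcttgggaggctctgtgattt
Aqp9 A_55_P2763530: ctgtgcaacctatgggcatataaattcatt
Aqp9 A_66_P126202: ggaagcagggtggggtctggatagtcaagt
The second Slc37a4 probe, designed on the cDNA AK040077 and placed at chr9:44205736-44205795 on build mm9, where the brightest one lies at chr9:44210978-44211037, gave differences of -0.07, 0.25 and 0.31 between genotypes, none past the test, where the brightest one gave 0.01, -0.29 and -0.47. Relative to the brightest probe it was higher in knockouts by 0.81 log2 units at ZT16 (exact permutation, adjusted p 0.0173). It also rose with time in both genotypes, by 0.84 in controls and 1.22 in knockouts from ZT8 to ZT16 (limma adjusted p 1.45e-04 and 6.34e-07), with no overlap between those times in either genotype. The lower Slc37a4 value of knockouts at ZT16 was thus measured by 1 of its 2 probes.

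Of the Mdh1 probes, the 2 designed on its RefSeq transcript were lower in knockouts at ZT16, by 0.30 and 0.54 log2 units (limma adjusted p 0.00609 and 0.00122). The third, designed on the cDNA AK046369 at chr11:21470088-21470147 (mm9), was at 0.18 there and did not pass (limma adjusted p 0.175). Relative to the brightest probe it was higher in knockouts by 0.51 log2 units (exact permutation, adjusted p 0.0173). It also rose from ZT8 to ZT16, by 0.36 in controls and 0.62 in knockouts (limma adjusted p 0.00867 and 1.87e-05). The 2 probes on the RefSeq transcript did not pass over that time in either genotype. For Aqp9 both probes were higher in knockouts at ZT16, but the second one by far more, at 1.20 ± 0.17 (SE) log2 units or 2.30-fold (limma adjusted p 1.12e-06) against 0.41. It was also higher at ZT8, by 0.63 ± 0.17 (limma adjusted p 0.0039), where the brightest probe gave 0.09. Both gaps between the Aqp9 probes passed the exact permutation test, at 0.55 (adjusted p 0.026) at ZT8 and 0.79 (0.0173) at ZT16. The second Aqp9 probe lies at position 283 of its transcript model, at chr9:71015550-71015609 (mm9), and the brightest one at position 2557, at chr9:70958495-70958554. In the F test over the 3 times its adjusted p was 0.00509. The falls of Aqp9 with time given above were those of the brightest probe. The second one did not pass in controls, at 0.14 from ZT8 to ZT12, -0.51 from ZT12 to ZT16 and -0.36 from ZT8 to ZT16 (limma adjusted p 0.645, 0.0952 and 0.113). In knockouts it was at -0.45 from ZT8 to ZT12 and 0.21 from ZT8 to ZT16, neither past the test (limma adjusted p 0.0796 and 0.394), and it rose by 0.66 from ZT12 to ZT16 (0.00756). Which exon or intron these probes read was not analysed here. The second Ldha probe gave 0.15, -0.20 and 0.29 and was called at ZT16 (limma adjusted p 0.0246).

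**Figure D3:**
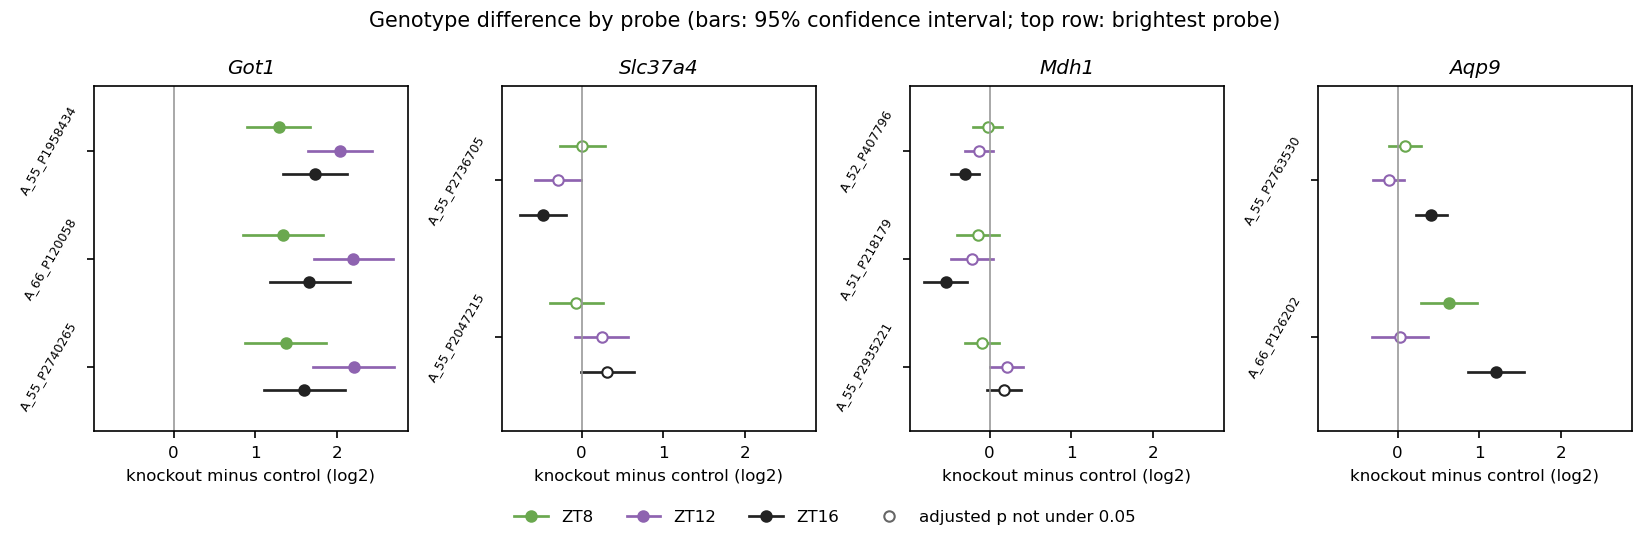
Knockout minus control difference (log2, horizontal axis) for each tested probe of Got1, Slc37a4, Mdh1 and Aqp9 at 3 times, with 95% confidence intervals (limma, 6 livers per group). Filled points had an adjusted p under 0.05. The 3 Got1 probes lie together between 1.29 and 2.20, while the second Slc37a4 probe reaches 0.31 where the brightest one is at -0.47, and the second Aqp9 probe reaches 1.20 where the brightest one is at 0.41.

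The levels of Ppargc1a were set against those of Pck1 and G6pc over the 36 arrays, which fall into separate groups by genotype. Between Pck1 and Ppargc1a Pearson's r was 0.915 over all arrays, 0.41 within the 18 control arrays and 0.60 within the 18 knockout arrays, and 0.26 after the 6 group means were taken out. G6pc and Ppargc1a gave 0.76 over all arrays, 0.07 within controls and 0.49 within knockouts. These correlations describe arrays that share scaling and wash batches.

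**Figure D4:**
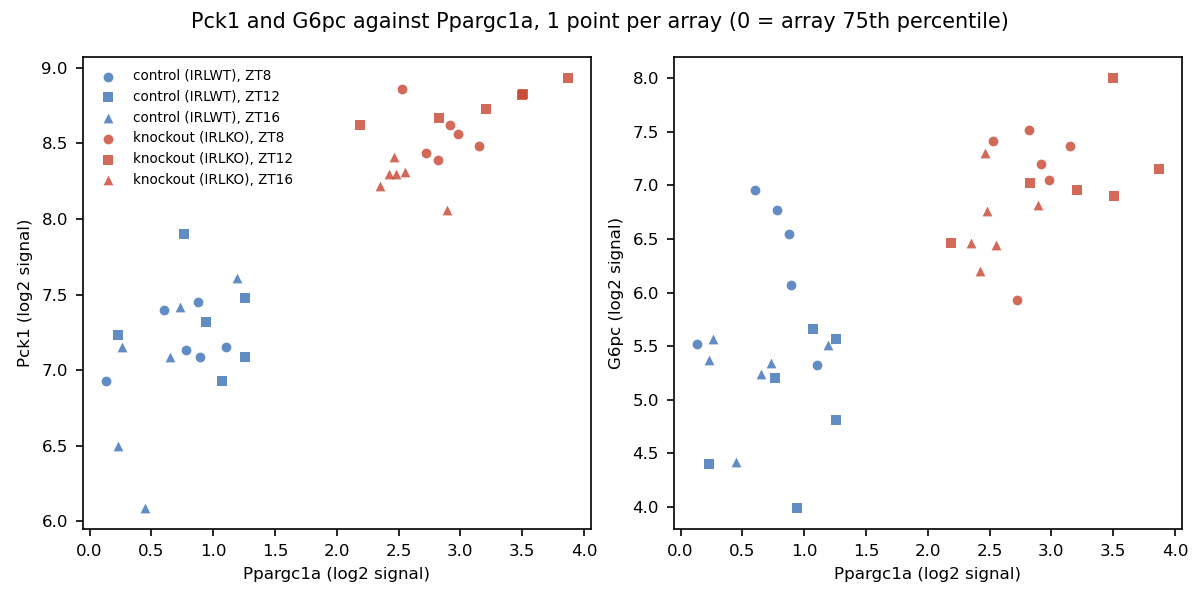
Log2 signal of Pck1 (left) and G6pc (right) against Ppargc1a, with 1 point per liver and 0 at the array's 75th percentile; colour gives genotype and shape gives time. The 18 knockout livers form a separate group at high Ppargc1a, from 2.19 up, and G6pc spreads from 3.99 to 6.96 among controls that all have Ppargc1a between 0.13 and 1.26.

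Among 17898 genes well above background on all arrays, those with a pattern most like Pck1 were the unnamed transcript of probe A_30_P01030988 (r 0.973), Ldb1 (0.918), which encodes a LIM-domain binding cofactor, and Ppargc1a. The first of these stayed close to Pck1 after removal of group means, with r 0.83. For G6pc they were Olfr1347 (0.88), AU021884 (0.879) and Irs2 (0.874), with r of 0.73, 0.72 and 0.53 after that removal. Olfr1347 is annotated as an olfactory receptor gene and Irs2 encodes an insulin receptor substrate. For Ppargc1a they were the transcript ENSMUST00000140182 (0.953), Tbc1d8 (0.95) and Fst (0.944), the last encoding follistatin, a secreted activin antagonist. Tbc1d8 had r of 0.07 with Ppargc1a within controls and 0.83 within knockouts.

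Counts in this and the following lists stand beside 34.9%, 41.5% and 39.3% of all genes called between genotypes at ZT8, ZT12 and ZT16. The lists were chosen with earlier results of these data known, so their counts are not a test of the lists. Of 12 other enzymes of the pathway listed, 11 were tested, and 4, 0 and 1 were higher in knockouts and 1, 3 and 4 lower at the 3 times, with medians of 0.09, -0.01 and -0.10. Gpi1, glucose-6-phosphate isomerase, and Eno1, enolase, passed at ZT8 alone, higher by 0.59 and 0.56 log2 units (limma adjusted p 9.3e-06 and 1.6e-05). G6pc3, the ubiquitous relative of G6pc, was higher at ZT16, by 0.48 (limma adjusted p 4.0e-05). Got2 was the gene lower at all 3 times.

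Among 19 tested genes of substrate supply and mitochondrial carriers, 6, 5 and 4 were higher and 4, 6 and 7 lower. Ldhb, the other lactate dehydrogenase subunit, was higher by 1.82, 1.88 and 1.46 log2 units (SE 0.11 each, limma adjusted p at most 1.8e-11), in contrast to the small differences of Ldha. Slc7a2, a cationic amino acid transporter, was higher by 1.23, 1.24 and 1.32. Gpt, the alanine aminotransferase, was lower by 0.28, 0.56 and 0.77, and Gpd1, the cytosolic glycerol-3-phosphate dehydrogenase, by 0.60, 1.07 and 0.54, all past the test (limma adjusted p at most 0.039).

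Of 14 tested genes of glycolysis and its regulation, the transporter Slc2a2 among them, 3, 3 and 3 were higher and 2, 4 and 5 lower. Medians were 0.16, 0.16 and 0.08. Pklr, liver pyruvate kinase, was lower by 1.56, 2.42 and 2.46 log2 units (SE 0.24 each, limma adjusted p at most 7.7e-06). Slc2a2, the main glucose transporter of hepatocytes, did not pass at ZT8 and was lower by 0.54 and 0.79 at ZT12 and ZT16 (SE 0.16 each, limma adjusted p 0.0084 and 3.0e-04). Pfkp, the platelet-type phosphofructokinase, was higher by 1.44, 1.67 and 1.50 (limma adjusted p at most 0.0014).

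Transcriptional regulators of the pathway were split. Of 27 tested, 6, 8 and 6 were higher and 6, 5 and 9 lower. Crem, a cAMP-responsive modulator, was higher by 1.20, 1.31 and 0.93 log2 units. Trib3, a pseudokinase that restrains AKT, was at 0.11 at ZT8 and higher by 1.87 at ZT12 and 2.29 at ZT16 (limma adjusted p 0.78, 9.2e-07 and 2.6e-08), while its control mean went from 3.12 at ZT8 to 0.09 and 0.02. Nr3c1, the glucocorticoid receptor, was lower by 0.38, 0.56 and 0.67, and Foxo3 by 0.44, 0.30 and 0.83. Of 14 tested partners, paralogs and mitochondrial targets of Ppargc1a, 5, 4 and 2 were higher and 1, 2 and 4 lower, with medians of 0.19, 0.16 and 0.10. Nrf1 was higher by 0.27, 0.60 and 0.49 and Esrra by 0.44, 0.27 and 0.31, both encoding factors that work with PGC-1alpha on mitochondrial genes. Cpt1a, the carnitine palmitoyltransferase of the outer membrane, was higher by 0.68 and 0.47 at ZT8 and ZT12 and at 0.23 at ZT16 (limma adjusted p 1.4e-04, 0.005 and 0.18). Ppara was at -0.30 at ZT8 and lower by 0.93 and 0.89 later (limma adjusted p 0.12, 7.2e-06 and 1.5e-05).

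Of 11 other genes listed here as FoxO targets repressed by insulin, 5 were higher at each time and 2, 2 and 3 lower. Their medians were 0.09, 0.61 and 0.56. Igfbp1 was higher by 4.05, 5.60 and 5.30 log2 units, Irs2 by 2.30, 3.65 and 3.14, and Ppp1r3g, a glycogen-targeting subunit of protein phosphatase, by 6.16, 7.29 and 6.81 (limma adjusted p at most 3.8e-07). The Ppp1r3g probe was well above background on 2 of 6 control arrays at ZT16 and on all arrays of the other groups, so its ZT16 difference rests partly on signals not well above background. From ZT8 to ZT16 in controls, 1 gene of this list was higher and 6 were lower, where 25.5% of all probes were called. Irs2 fell by 0.93 and Igfbp1 by 1.48 (limma adjusted p 0.018 and 0.019), and Pdk4, a pyruvate dehydrogenase kinase, was the gene that rose, by 1.26 (0.039). Sesn3 was at 0.08 at ZT8 and higher by 0.52 and 0.81 later (limma adjusted p 0.53, 4.6e-05 and 3.8e-08). Among zonation markers, 2, 3 and 3 of the 10 periportal genes were higher and 2, 2 and 3 lower in knockouts, and 3, 2 and 2 of the 10 pericentral genes were higher and 3, 4 and 4 lower.

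**Figure D5:**
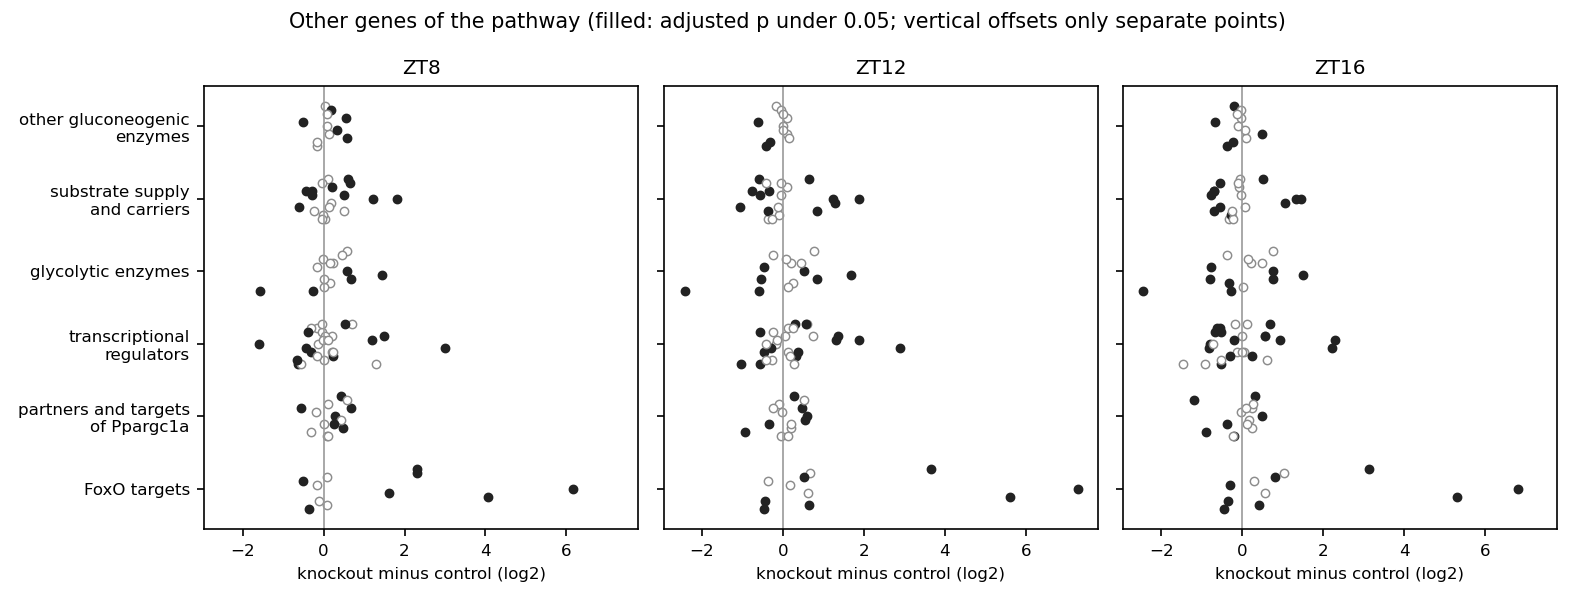
Knockout minus control difference (log2, horizontal axis) of the tested genes in 6 lists around gluconeogenesis, at ZT8, ZT12 and ZT16, 1 point per gene; filled points had a limma adjusted p under 0.05. Among glycolytic enzymes Pklr reaches -2.46 at ZT16, while the other gluconeogenic enzymes stay between -0.67 and 0.59. Ppp1r3g and Igfbp1 lie farthest to the right in the list of FoxO targets.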

How the data were processed

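Liver RNA was labelled with 1 dye (Cy3) from 200 ng per sample and hybridised to Agilent mouse arrays with 56605 probes. Per the file headers, the deposited spot values are fluorescence intensity from Feature Extraction 10.10.1.1, background subtracted and not normalized between arrays, with probe positions on mm9, and the deposited spot flags are other values of 0 or 1. The authors' deposited table holds quantile normalized log2 values of 32801 probes and served as an alternative.

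Log2 processed signal was taken minus each array's 75th percentile. Probes well above background on at least 6 of 36 arrays, with no missing value, were tested (34678). limma 3.58.1 in R 4.3.3 fitted 6 group means with wash batch as a fixed term; each of the 3 batches holds all 6 groups. P-values were Benjamini-Hochberg adjusted over all probes, with a threshold of 0.05, and the procedure was tested on simulated data. Where a gene had several probes the brightest on average stood for it. Members were all named, as were up to 4 genes of smallest p in each pathway list, less those not reported here, and the 3 genes most correlated with Pck1, G6pc and Ppargc1a. The members and lists were chosen with earlier results of these data known. The permutation test between probes of 1 gene was added after their values had been seen. Same-numbered replicates were checked for pairing and did not deviate together. The alternatives were other background corrections, normalizations and filters, slide, array weights, a replicate block, only the groups compared, and leaving out each array.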

Additional observations from a re-analysis of the deposited data

Results flagged for a closer look

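Within the 60 sets of 6 livers (10 genes in 6 groups), 9 held 1 liver set apart from the other 5 by Dixon's criterion, where chance gives about 1 in 20, or 3. Knockout ZT16 replicate 6 accounted for 3 of them, with Fbp1 at 9.16 against 8.64 to 8.83 in the other 5 livers, Ppargc1a at 2.89 against 2.35 to 2.55, and Mdh1 at 7.06 against 6.45 to 6.65. G6pc, which releases glucose, was low at 5.93 in knockout ZT8 replicate 3 (others 7.05 to 7.52) and at 4.42 in control ZT16 replicate 5 (others 5.24 to 5.57). Pck2 was high at -0.87 in control ZT16 replicate 4, where the others ran from -1.59 to -1.44. Slc37a4 was low at 6.55 in control ZT12 replicate 1 (others 6.79 to 6.92), and Ldha at 7.75 in control ZT16 replicate 6 (others 7.98 to 8.11). Mdh1 was high at 7.04 in knockout ZT8 replicate 1 (others 6.66 to 6.80).

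The genotype difference of Aqp9, the glycerol channel, changed between the 3 times by the F test in limma (adjusted p 0.0276, brightest probe). That test called 7.24% of all probes. The Aqp9 call was lost with no filter on dim probes (0.0606) and with the replicate block (0.0521). It was also lost without knockout ZT16 replicate 1 or 4 (up to 0.0553).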

How the results depend on the processing

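The counts of the 10 genes called between genotypes at each time stayed within 1.5 times under every alternative run, and no single gene's called difference reversed. Of 120 counts under an alternative, 14 moved further. The number of genes whose genotype difference changed between times (1) was 2 with normexp, with quantile normalization and in the authors' deposited table, 3 with array weights, and 0 with no filter on dim probes and with the replicate block. The ZT16 against ZT8 contrast of that difference (0 genes) called 1 with quantile normalization, in the authors' deposited table and with array weights. In knockouts, the count from ZT8 to ZT12 (1) was 2 in the authors' deposited table, that from ZT12 to ZT16 (2) was 1 with no filter and with the replicate block, and that from ZT8 to ZT16 (3) was 6 with array weights. In controls the count from ZT12 to ZT16 (1) was 0 with only the groups compared. The cause of these shifts was not tested.

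Leaving out 1 array at a time gave 5 to 6, 6 to 7 and 8 to 9 genes called between genotypes at ZT8, ZT12 and ZT16. It gave 2 to 3, 1 to 1 and 2 to 3 for control changes from ZT8 to ZT12, ZT12 to ZT16 and ZT8 to ZT16, and 1 to 2, 1 to 2 and 2 to 3 for the same changes in knockouts. The ZT16 against ZT8 contrast gave 0 to 1 and the F test 0 to 2. Same-numbered replicates had a median correlation of deviations of 0.0162 over 90 pairs, so the numbers were not taken to pair samples. With the replicate block the knockout fall of Ppargc1a from ZT12 to ZT16 had an adjusted p of 0.0651 and the F test of Aqp9 one of 0.0521, and no other count moved by over 1.5 times.

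Precision is limited by 6 arrays per group, and levels of different probes cannot be ranked.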
